A study of Mus musculus with 88 samples.

Results

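The levels of 6 genes through which the oocyte and its granulosa cells exchange signals were followed in single fully grown germinal vesicle (GV) oocytes. The genes were Gdf9, Bmp15, Bmp6 and Fgf8, which encode ligands that the oocyte secretes, Kit, which encodes the receptor for KIT ligand, and Gja4, which encodes connexin 37. They were chosen by name, with earlier results of these data known. Each was read from 1 of the 38540 features of the oocyte transcriptome. All 6 had counts in all 88 oocytes and passed the filter of a mean count of 10 or more per oocyte, as 12408 features did. Oocytes came from C57BL/6Babr virgin females, either 12 weeks old (young, 42 oocytes from 3 mice) or 44 to 54 weeks old (labelled old, called aged here, 46 oocytes from 7 mice). Polyadenylated RNA of each oocyte was sequenced as Smart-seq2 cDNA, the RNA arm of the parallel transcriptome and methylome method scM&T-seq. The mouse of each oocyte is not given, so each age group stands for 1 sample, no test was run between groups, and SDs describe the spread between oocytes.

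The study's supplementary table assigns each oocyte a chromatin configuration, either non-surrounded nucleolus (NSN) or surrounded nucleolus (SN). NSN oocytes still transcribe, and chromatin condenses around the nucleolus in the SN configuration as transcription stops. The assignment was predicted from transcripts of these same oocytes and not seen under the microscope, so every difference between NSN and SN is given as a description. There were 30 young NSN, 12 young SN, 37 aged NSN and 8 aged SN oocytes. One aged oocyte, oGV_48A, has no configuration and was kept apart, which left 87 oocytes.

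Within the follicle the oocyte and its granulosa cells depend on each other. GDF9 and BMP15 are close relatives within the transforming growth factor beta family that are made almost only by the oocyte in the ovary, and they keep cumulus cells growing and drive their expansion before ovulation. FGF8 acts with BMP15 to promote glycolysis in cumulus cells, and BMP6 is another ligand of the family that the oocyte makes. In the other direction, KIT ligand from granulosa cells binds KIT on the oocyte and promotes its growth, and connexin 37 forms the gap junctions on the oocyte side through which granulosa cells pass metabolites and cyclic nucleotides.

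Total counts ranged from 1579196 to 8231046 per young oocyte and from 976456 to 5448310 per aged oocyte. No pair of oocytes had identical counts. The total of the aged SN oocyte oGV_15 differed from the one in the study's supplementary table. It was kept, and leaving it out was among the alternatives described below. Oocyte markers summed to between 11445 and 19021 CPM, the count of a feature per 1000000 counts of the oocyte, in every one of the 87 oocytes, with 12 of 13 listed genes represented. Of 22 granulosa and cumulus markers, 18 had a feature and summed to between 198.7 and 377.2 CPM per oocyte. The sums had medians of 270.5 (young NSN), 269.5 (young SN), 266.3 (aged NSN) and 267.6 CPM (aged SN), most of it Esr2, at 209.8 to 220.4 CPM in the 4 groups, with Nr5a2 next at 24.2 to 27 CPM. Without these, the other 16 markers summed to medians of 21.5 (young NSN), 25.3 (young SN), 18.3 (aged NSN) and 31.8 CPM (aged SN), and single oocytes ran from 6.14 to 114.7 CPM. Gja1 and Inha, which granulosa cells express, were lower in aged than in young NSN oocytes, at 3.20 against 7.81 CPM and 5.25 against 7.04 CPM. The part of these markers in the values of the 6 genes was not tested. The pooled levels of Foxl2, Amh, Amhr2 and Fshr, which define granulosa cells, were each under 1 CPM in every group. Other markers of the list were higher, with Kitl at 10.0 to 17.4 CPM. Single NSN oocytes reached 54.1 CPM of Inha (aged) and 42.3 CPM of Gja1 (young).

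Promoter sequences spanning 250 bases before to 50 bases after the annotated start were taken from RefSeq (GRCm38.p6), where 4 of the 6 genes had an entry. Shown are Bmp15 and Kit, whose levels moved together between oocytes, and Bmp6, whose level differed the other way between configurations. Capitals mark E-boxes (CANNTG), the letters bound by basic helix-loop-helix factors such as FIGLA, and NOBOX elements (TAATTG or TAATTA), searched on both strands. The regions were chrX:6320675-6320974 on the minus strand for Bmp15, chr5:75574737-75575036 on the plus strand for Kit and chr13:38345466-38345765 on the plus strand for Bmp6.
Bmp15: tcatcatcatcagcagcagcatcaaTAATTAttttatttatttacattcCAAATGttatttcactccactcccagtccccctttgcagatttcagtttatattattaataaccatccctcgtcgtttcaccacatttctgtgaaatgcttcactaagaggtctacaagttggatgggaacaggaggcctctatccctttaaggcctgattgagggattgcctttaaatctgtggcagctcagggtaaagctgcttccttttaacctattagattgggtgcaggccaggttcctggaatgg
Kit: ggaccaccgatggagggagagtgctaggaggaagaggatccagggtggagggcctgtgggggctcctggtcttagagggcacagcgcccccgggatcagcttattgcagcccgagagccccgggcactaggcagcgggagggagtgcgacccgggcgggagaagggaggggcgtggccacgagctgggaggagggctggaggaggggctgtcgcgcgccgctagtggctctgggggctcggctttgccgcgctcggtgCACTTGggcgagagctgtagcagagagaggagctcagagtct
Bmp6: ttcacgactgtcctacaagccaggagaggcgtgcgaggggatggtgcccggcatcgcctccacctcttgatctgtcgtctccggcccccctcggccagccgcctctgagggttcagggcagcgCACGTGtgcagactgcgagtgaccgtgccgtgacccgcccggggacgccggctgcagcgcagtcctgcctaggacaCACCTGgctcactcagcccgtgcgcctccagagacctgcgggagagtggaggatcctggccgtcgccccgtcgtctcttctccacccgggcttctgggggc
Bmp15 held 1 NOBOX element, letters found in 12.4% of the 32851 promoters of this length in the table, and overlapping no E-box. Neither Kit, Bmp6 nor Gja4 held one. E-boxes occurred in 72.3% of all promoters and in all 4 of these, with 2 in Bmp6 and 1 in each of Bmp15, Kit and Gja4. GC content was 41.7% in Bmp15 against 69.0% in Kit, 69.3% in Bmp6 and 62.0% in Gja4. The oocyte features began upstream of these annotated starts, by 2579 bases in Bmp15, 521 in Kit, 5064 in Bmp6 and 608 in Gja4. Gdf9 and Fgf8 were not among the entries.

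The ligands spanned a wide range of levels. Gdf9, on the plus strand at chr11:53433268-53437904 (GRCm38, feature TCONS_00015332), had the seventh highest mean count of all features, and Bmp15, on the minus strand at chrX:6309243-6323303 (TCONS_00110604), came next. Their mean counts per oocyte were 12403 and 10615. Bmp6 (TCONS_00026751, chr13:38340652-38500371, plus strand) averaged 213.9 counts and Fgf8 (TCONS_00055168, chr19:45736859-45742212, minus strand) averaged 124.8. Kit (TCONS_00077755, chr5:75574466-75656741, plus strand) averaged 1612 counts and Gja4 (TCONS_00075095, chr4:127311418-127314647, minus strand) averaged 2243. The Bmp6 feature shares 99 bases with that of Txndc5 on the other strand, which had 477.8% of its counts, and whether counting used strand is not stated in the sources used here, so the Bmp6 values are uncertain to that extent.

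Because CPM grows with transcript length, the order of the 6 genes was taken per kilobase of exon. Other ranks, given by count or CPM, take no account of length. In young NSN oocytes the order was Gdf9 (2077 CPM per kilobase), Bmp15 (1246), Gja4 (485.3), Kit (63.1), Fgf8 (32.1) and Bmp6 (20.3). Gdf9 ranged there from 1672 to 2649 and Bmp15 from 952.2 to 1535 CPM per kilobase over single oocytes. Among neighbours in that order only Fgf8 (16.3 to 49.0) and Bmp6 (13.9 to 26.7) had ranges that overlapped. In aged NSN oocytes those of Gdf9 (827.0 to 2646) and Bmp15 (695.4 to 1555) and those of Kit (33.1 to 77.4) and Fgf8 (18.4 to 92.3) overlapped as well. The order of the 6 genes was the same in the other 3 groups, in which Gdf9 stood at 2578 (young SN), 1947 (aged NSN) and 2696 CPM per kilobase (aged SN).

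In young NSN oocytes Gdf9 had a lowest value of 3395, a median of 4196 and a highest of 5381 CPM. The 37 aged NSN oocytes ran from 1680 through a median of 4036 to 5374 CPM, so the upper ends met and the lower ends did not. Pooled over oocytes, the level was 4217 ± 479 (SD, n = 30) in young and 3953 ± 1065 (SD, n = 37) in aged NSN oocytes, a log2 ratio of -0.09 (95% counting interval -0.10 to -0.09). For Bmp15 the young NSN oocytes ran from 2914 through 3807 to 4697 CPM and the aged from 2128 through 3311 to 4757 CPM. The pooled levels were 3812 ± 509 (SD, n = 30) and 3358 ± 703 CPM (SD, n = 37), with a log2 ratio of -0.18. That difference was smaller than the SD of either group, and the groups overlapped in both genes.

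Bmp6 was at 79.1 ± 13.3 CPM (SD, n = 30) in young and 77.2 ± 15.3 CPM (SD, n = 37) in aged NSN oocytes, over ranges of 54.3 to 104.0 and 47.7 to 136.2 CPM. Fgf8 ran from 22 through a median of 42.3 to 66.2 CPM in young NSN oocytes and from 24.9 through 44.4 to 124.7 CPM in aged. Its pooled levels, 43.4 ± 10.7 (SD, n = 30) and 48.3 ± 19.7 CPM (SD, n = 37), gave a log2 ratio of 0.15 (95% counting interval 0.09 to 0.22). Fgf8 was the only member with a higher pooled level in aged NSN oocytes, and in its range the upper end was the one that lay further out. Kit ran from 439.2 through 557.9 to 789.4 CPM in young and from 295.2 through 508.0 to 690.0 CPM in aged NSN oocytes, a log2 ratio of -0.15 between 562.0 ± 86.3 (SD, n = 30) and 506.9 ± 97.2 CPM (SD, n = 37). Gja4 was at 817.7 ± 99.7 (SD, n = 30) and 810.7 ± 132.4 CPM (SD, n = 37), a log2 ratio of -0.01.

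**Figure D1:**
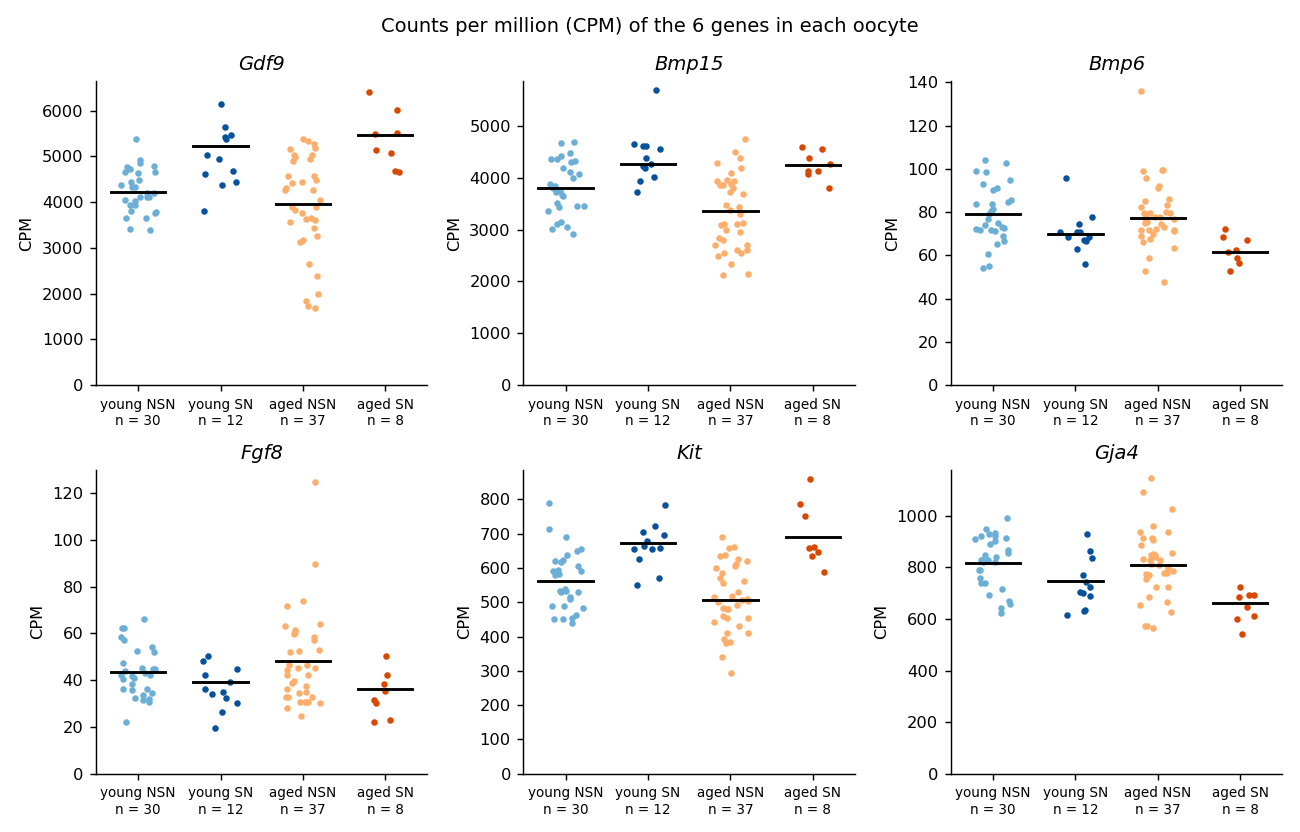
CPM (linear axes from 0) of each gene in each oocyte, by age and predicted configuration. Points are oocytes and black lines are levels pooled over the group. Gdf9 runs down to 1680 CPM in aged NSN oocytes against 3395 CPM in young ones, and Fgf8 runs up to 124.7 against 66.2 CPM.

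With a log2 ratio of pooled CPM of at least 0.32 in either direction taken as a call, none of the 6 genes was called between aged and young NSN oocytes, where 5.89% of all tested features were. None was called between aged and young SN oocytes (16% of features) or between all aged and all young oocytes (4.51%). The median log2 ratio of the members in NSN oocytes was -0.07, against -0.01 over all 12408 features, and 5 of 6 were lower in aged oocytes, as were 52.8% of features. These counts come from groups that overlapped in every member, and in NSN oocytes no feature had groups that did not overlap.

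Differences with age in SN oocytes rested on 8 aged and 12 young oocytes. Gdf9 in the 8 aged SN oocytes ran from 4652 through 5320 to 6411 CPM and in the young from 3808 through 4988 to 6150 CPM, with a log2 ratio of pooled CPM of 0.06. Bmp15 was 4243 ± 263 (SD, n = 8) against 4271 ± 498 CPM (SD, n = 12), a log2 ratio of -0.01. The aged values were inside the young range for all 8 oocytes in Bmp15. Gja4, at 663.3 ± 61.2 (SD, n = 8) against 746.8 ± 97.5 CPM (SD, n = 12), had a log2 ratio of -0.17, and 3 of 8 aged SN oocytes lay below the lowest young one. Bmp6 had -0.18, Fgf8 -0.11 and Kit 0.03.

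The spread between oocytes also differed with age. The coefficient of variation (CV) left after counting noise was subtracted was 11.2% for Gdf9 in young NSN oocytes and 27% in aged, a log2 ratio of the squared CV of 2.53. Among all features Gdf9 was at percentile 14.3 of spread in young and at percentile 67.3 in aged NSN oocytes. For Bmp15 the CV was 14% in young and 22.2% in aged NSN oocytes (log2 ratio 1.34) and for Fgf8 it was 23% and 38.7% (1.5). Gja4 (11.2% and 14.8%), Kit (15.3% and 18.8%) and Bmp6 (15.7% and 16.7%) had smaller differences. All 6 were more variable in aged NSN oocytes, as were 73.6% of the features compared, whose median log2 ratio was 0.52.

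In SN oocytes this order did not hold. The CV of Gdf9 was 12.8% in young and 11.2% in aged SN oocytes, that of Bmp15 was 11.9% and 5.74%, and that of Bmp6 was 11.0% and 6.44%. Gja4 was lower in aged SN oocytes too (11.3% and 7.93%), while Kit (8.15% and 12.9%) and Fgf8 (22.6% and 24.4%) were higher. Across all features the median log2 ratio in SN oocytes was -0.29, and 40.1% were more variable in aged. With 8 and 12 oocytes these CVs are imprecise, and whether the ratio differs between configurations was not tested.

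**Figure D2:**
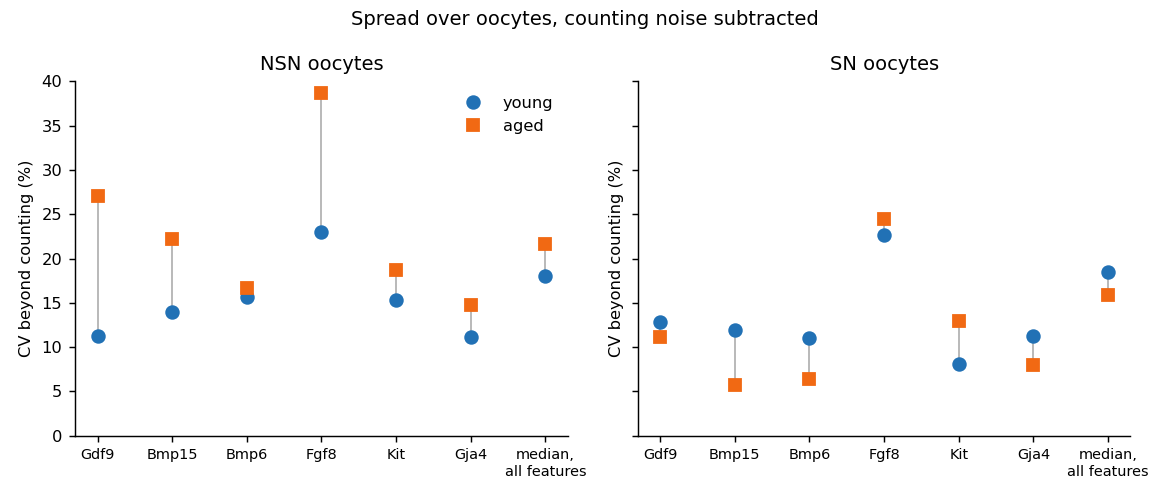
Coefficient of variation over oocytes after subtraction of counting noise (percent, axis from 0) for the 6 genes and the median of all features, in NSN and SN oocytes. Circles are young and squares aged oocytes. The widest gap in NSN oocytes is that of Gdf9, from 11.2% to 27%.

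The added spread in Gdf9 lay on the low side. Of 37 aged NSN oocytes, 9 were below all 30 young NSN oocytes and none was above them. By the same count 12 were below and 1 above for Bmp15, 8 below and 0 above for Kit, and 0 below and 4 above for Fgf8. For Gja4 there were 3 below and 3 above, and for Bmp6 2 below and 1 above. The lowest Gdf9 value was in oGV_25, at 1680 CPM, where Bmp15 was at 2128 CPM, the lowest of all 87 oocytes, and Fgf8 at 89.5 CPM. The third lowest, oGV_26, had 1848 CPM of Gdf9, 2151 CPM of Bmp15 and the highest Fgf8 of all, 124.7 CPM. In oGV_31 Gdf9 was at 1986 CPM, Kit was the lowest of all at 295.2 CPM and Bmp6 the highest of all at 136.2 CPM.

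Over aged NSN oocytes Gdf9 and Bmp15 were correlated with a Spearman rho of 0.63 (n = 37), against 0.37 in young NSN oocytes (n = 30). Bmp15 and Kit had 0.73 in aged and 0.63 in young NSN oocytes, and Gdf9 and Kit 0.59 in both. Fgf8 ran the other way, with rho of -0.77 to Bmp15 and -0.64 to Gdf9 in aged NSN oocytes and of -0.46 and -0.15 in young. In the 20 SN oocytes of both ages Gdf9 and Bmp15 had -0.46, opposite in sign to the NSN oocytes of either age. Gdf9 and Fgf8 had 0.42 there, also opposite in sign, and Gdf9 and Kit -0.02. Bmp15 kept its signs, with 0.29 to Kit and -0.19 to Fgf8. The points share library preparation, depth and the closure of CPM to a fixed sum, and no p-value is given. The rank correlation with total count was -0.39 for Gdf9 and -0.17 for Bmp15 in young NSN oocytes and 0.0036 and 0.062 in aged NSN oocytes. In the SN oocytes it was 0.58 for Gdf9, -0.55 for Bmp15 and 0.61 for Fgf8, so depth moved with these genes there, with Bmp15 opposite to the others. The part of depth in the -0.46 and the 0.42 was not tested.

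**Figure D3:**
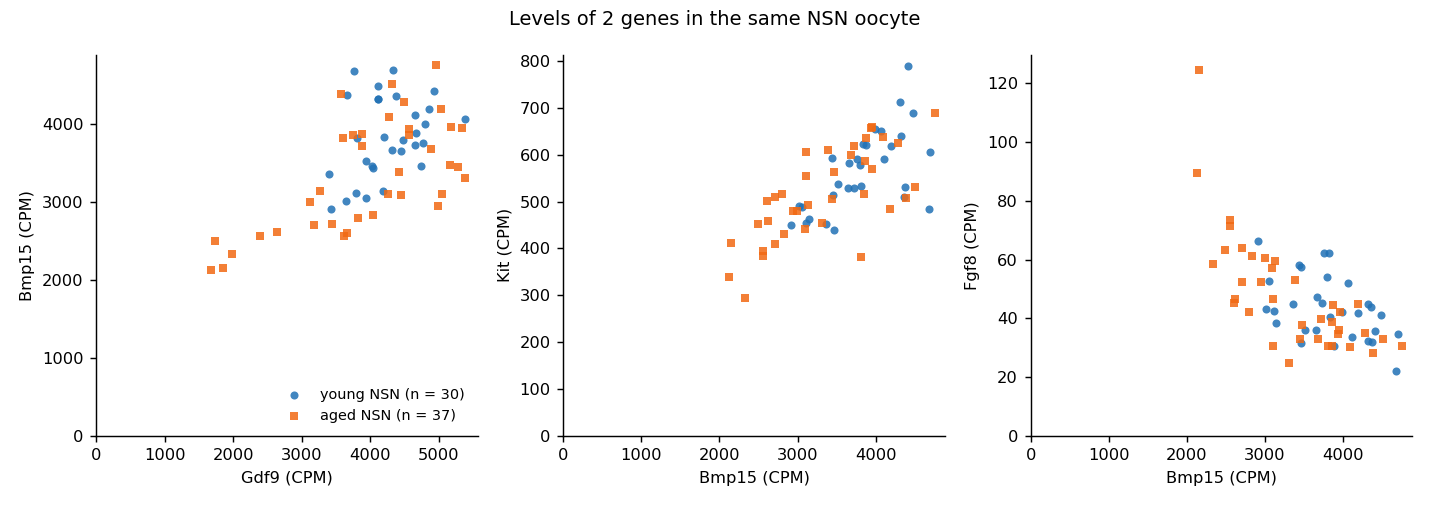
CPM of pairs of genes in the same NSN oocyte (linear axes from 0), with circles for 30 young and squares for 37 aged oocytes. The lowest Gdf9 value, 1680 CPM, and the lowest Bmp15 value, 2128 CPM, are in the same aged oocyte, and the highest Fgf8 values, 89.5 and 124.7 CPM, lie at the lowest Bmp15 values.

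GDF9 and BMP15 proteins act as homodimers and as heterodimers, so the balance of the 2 transcripts was also followed. Per kilobase of exon, with 2031 bases for Gdf9 and 3060 for Bmp15, Gdf9 exceeded Bmp15 in every one of the 87 oocytes. The order within an oocyte depends on these lengths, and the Bmp15 feature reaches beyond the annotated gene on both sides. In CPM, without division by length, pooled Gdf9 was higher in every group. Bmp15 was higher in some oocytes, such as oGV_25 (2128 against 1680 CPM) and yGV_1A (5692 against 4450 CPM). The log2 ratio of Gdf9 to Bmp15 had a median of 0.82 in young NSN, 0.84 in young SN, 0.82 in aged NSN and 0.94 in aged SN oocytes. Its range was 0.28 to 1.04 in young NSN and 0.07 to 1.35 in aged NSN oocytes, with SDs of 0.20 and 0.32. The lower and the upper ends were both wider in aged NSN oocytes, while the medians were alike.

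Numbers in the oocyte names form 6 consecutive blocks, 3 young and 3 aged, called runs here, and some names carry a suffix A. The labels do not explain either. Of the 9 aged NSN oocytes below the young range for Gdf9, 6 were among the 11 of the run numbered 25 to 31, and 8 had no suffix. Pooled Gdf9 of aged NSN oocytes was 3308 CPM in that run, 3940 CPM in the run 9 to 16 and 4479 CPM in the run 41 to 48, while the 3 young runs lay between 4143 and 4409 CPM. Without the run 25 to 31 the log2 ratio of Gdf9, aged over young NSN, was 0.01. The log2 ratio of squared CV over all 45 aged and 42 young oocytes was 1.92 for Gdf9, and 1.29 without that run. For Bmp15 it was 1.12 and 0.59, for Fgf8 1.44 and 0.77, and for Kit 1.02 and 0.25. For Bmp6 it was 0.41, and it turned to -0.32 without that run. The part of the run in these values was not tested beyond leaving it out.

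Bmp15 was the member whose NSN levels did not overlap between the runs of the 2 ages, at 3622 to 3997 CPM over the young runs and 3008 to 3552 CPM over the aged. The share of all features whose runs separate in this way is not given here, so this does not set Bmp15 apart from other features. Leaving out each run in turn kept its log2 ratio between -0.22 and -0.12. The ratio of Fgf8 depended on the suffix. Among NSN oocytes with suffix A Fgf8 was 46.3 CPM over 14 young and 41 CPM over 19 aged ones, a log2 ratio of -0.18. Without suffix it was 41 CPM over 16 young and 56.5 CPM over 18 aged ones, a log2 ratio of 0.46, which was past the limit. No direction with age is therefore given for Fgf8. Gdf9 had log2 ratios of -0.05 with suffix A and -0.17 without, Bmp15 -0.14 and -0.24, and Kit -0.18 and -0.14, so these 3 kept 1 direction in both. The run levels of Gdf9 and of Kit overlapped between the ages, and the Gdf9 ratio was 0.01 without the run 25 to 31.

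**Figure D4:**
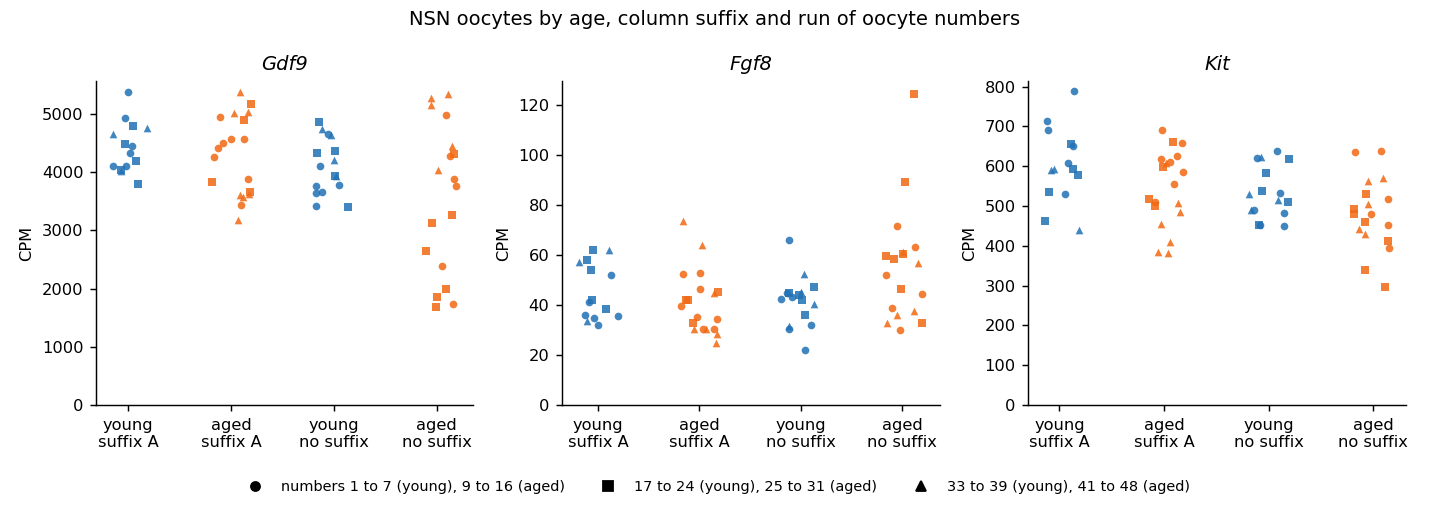
CPM of Gdf9, Fgf8 and Kit (linear axes from 0) in NSN oocytes by age and suffix of the oocyte name, with markers for the run of oocyte numbers. Aged oocytes without suffix hold 8 of the 9 Gdf9 values below the young range, and their Fgf8 level was 56.5 CPM against 41 CPM in aged oocytes with suffix A.

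Between configurations the members split into 2 sets. Gdf9, Bmp15 and Kit were higher and Bmp6, Fgf8 and Gja4 lower in SN than in NSN oocytes, in both ages. In aged oocytes Gdf9 was 5475 ± 617 CPM in SN (SD, n = 8) against 3953 ± 1065 CPM in NSN (SD, n = 37), a log2 ratio of 0.47 (95% counting interval 0.46 to 0.48). All 8 aged SN oocytes were above the aged NSN median, and 4 were above the highest aged NSN oocyte. For Kit, at 689.2 ± 91.3 (SD, n = 8) and 506.9 ± 97.2 CPM (SD, n = 37), the log2 ratio was 0.44, and 3 of 8 SN oocytes were above all aged NSN oocytes. Bmp15 had 0.34, with all 8 SN oocytes above the NSN median and none above the highest NSN oocyte.

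On the lower side Fgf8 was at 36.4 ± 9.5 CPM in aged SN oocytes (SD, n = 8) and 48.3 ± 19.7 CPM in aged NSN (SD, n = 37), a log2 ratio of -0.41 (95% counting interval -0.52 to -0.29). Bmp6 had a log2 ratio of -0.33, with pooled levels of 61.4 and 77.2 CPM, and Gja4 one of -0.29, with 663.3 and 810.7 CPM. No aged SN oocyte was above the NSN median for Bmp6 or Gja4, and 1 of 8 was for Fgf8. The groups overlapped in every member.

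In aged oocytes 3 members were thus called higher in SN, where 20% of features were, and 2 lower, where 14.7% were. In young oocytes none was called, where 15.3% of features were in either direction. Gdf9 was just short of the limit there, with a fold of 1.24 and a log2 ratio of 0.31, from 4217 CPM in NSN to 5236 ± 650 CPM (SD, n = 12) in SN oocytes. The other young ratios were 0.26 for Kit, 0.16 for Bmp15, -0.18 for Bmp6, -0.14 for Fgf8 and -0.13 for Gja4. Whether the ratio of SN to NSN differs between ages was not tested. Because the NSN groups enter both the age and the configuration ratios, the larger configuration ratios in aged oocytes are not independent of the lower pooled Gdf9, Bmp15 and Kit levels of aged NSN oocytes. For Gdf9 that lower level depended on the run 25 to 31, without which its log2 ratio with age was 0.01.

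The split was also followed run by run. The configurations were predicted from transcripts of these same oocytes, so the runs are not an independent check of it. The share of all features with 1 direction in every run is not given here. Gdf9, Bmp15 and Kit were higher in SN than in NSN oocytes in 6 of 6 runs, with log2 ratios of 0.10 to 0.63, 0.19 to 0.57 and 0.20 to 0.73. Fgf8 was lower in 6 of 6 runs (-0.99 to -0.0047), and Bmp6 and Gja4 in 5 of 6, the exception being the young run 1 to 7, whose SN level is that of 1 oocyte. The SN oocytes of each aged run had 1 suffix in common, so these ratios mix configuration with suffix. Against NSN oocytes of the same run and suffix the log2 ratio of Gdf9 in aged oocytes was 0.26 in run 25 to 31, in place of 0.63, 0.29 in run 41 to 48 and 0.53 in run 9 to 16. In such comparisons all 6 genes kept their direction in the 3 aged runs. In the 5 combinations of run and suffix with both configurations among young oocytes Bmp15, Fgf8 and Kit kept theirs in all, and Gdf9, Bmp6 and Gja4 in 4. Calls in aged oocytes depended on the libraries included. Without the run 25 to 31 the higher calls numbered 1, Gdf9 at 0.41, with Kit at 0.29 and Bmp15 at 0.23, and Fgf8 was at -0.18. Among aged oocytes with suffix A, 3 of them SN, Gdf9 was at 0.26 and Bmp6 at -0.11, and with TMM scaling Bmp15 was at 0.30. Bmp6 was at -0.31 without the run 9 to 16 and Gja4 was at -0.33 with TMM scaling, on either side of the limit. Log2 ratios of SN over NSN in aged oocytes also moved with exon length, from a median of -0.17 below 1500 bases to 0.06 from 7000 bases, and its part in the members' values was not tested. Gdf9 has 2031, Bmp15 3060, Bmp6 3900, Fgf8 1350, Kit 8911 and Gja4 1685 bases of exon.

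**Figure D5:**
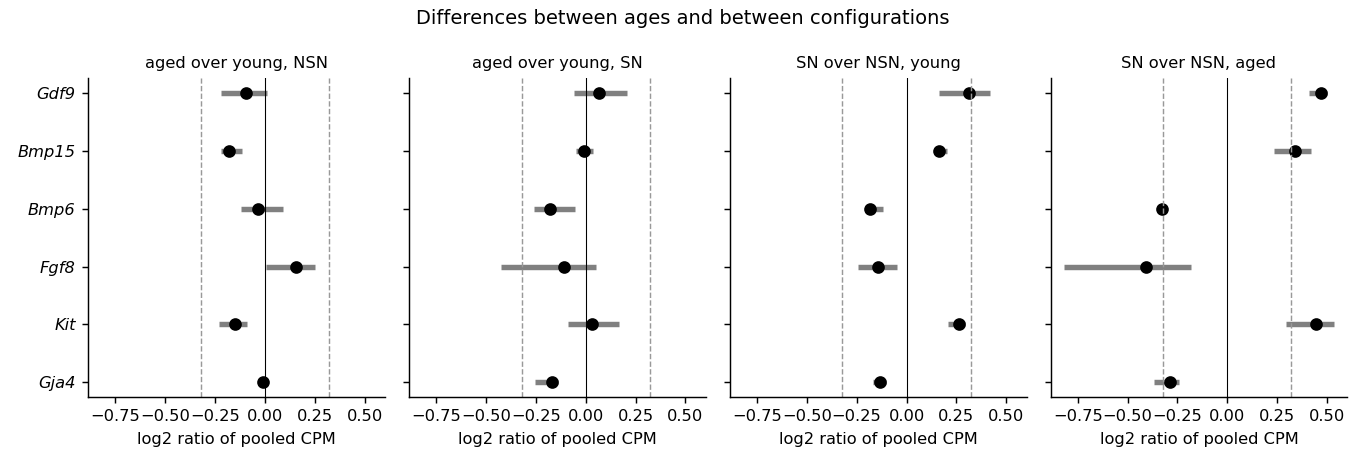
Log2 ratios of pooled CPM in 4 comparisons. Dots are the values with all oocytes, grey bars the range when each run of oocyte numbers is left out in turn, and dashed lines mark the limit of a call, 0.32 in either direction. Gdf9, Bmp15 and Kit lie right of 0 and Bmp6, Fgf8 and Gja4 left of 0 in both SN over NSN panels.

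Features most like each member were sought by Spearman correlation of CPM over the 87 oocytes, among 5094 other named features whose mean count was 100 or more. The nearest to Gdf9 were Astl, which encodes ovastacin, the protease that cleaves the zona pellucida after fertilisation (rho 0.91), Mtmr14 (0.90) and Padi6, a component of the subcortical maternal complex (0.85). The nearest to Bmp15 were Zp2, a zona pellucida glycoprotein (0.84), C130026I21Rik (0.81) and Alg13 (0.80). Kit was most like Ogdh (0.84), Ap1b1 (0.84) and Plxnb2 (0.83). Among the members Bmp15 placed 33rd on the Kit list and Kit 11th on that of Bmp15, while Gdf9 was 253rd for Bmp15.

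Gja4 was most like Mos, the kinase that holds the egg at metaphase II (0.78), Zfp296 (0.78) and Nek6 (0.77). Bmp6 was most like Papd7 (0.73), Npc1 (0.69) and Lrp5 (0.69), and Fgf8 like Bud13 (0.69), Plat, the tissue-type plasminogen activator (0.65), and Gpatch3 (0.63). Bmp15 placed 5087th of 5094 for Fgf8, near the end of the list. Within configurations these likenesses varied. The Spearman coefficient between Gdf9 and Astl was 0.87 in young NSN, 0.92 in aged NSN and 0.84 in SN oocytes. In the 20 SN oocytes it was lower for other pairs, at 0.39 between Gdf9 and Padi6, 0.41 between Bmp15 and Zp2, 0.25 between Bmp15 and Alg13 and 0.32 between Fgf8 and Plat.

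Other genes of the same pathways were read from 8 lists, in which 49 genes had a mean count of 10 or more and could be called. Between aged and young NSN oocytes 1 was called higher and 3 lower, 8.16% of the 49 against 5.89% of all features. Of these 4 calls 1, that of Gja1, stayed when each run was left out in turn. Between aged SN and NSN oocytes 14 were called higher and 4 lower, 28.6% and 8.16% of the 49 against 20% and 14.7% of all features, and 9 of the 18 calls stayed without each run. In young oocytes 9 were called between configurations, 18.4% against 15.3%, and 3 of the 9 calls stayed without each run. Of 14 other ligands of the family 10 had a feature, and 3 reached 10 CPM in a group, led by Tgfb2 at 578.6 to 608.0 CPM and followed by Bmp5 at 134.9 to 160.0 CPM and Tgfb3. None of these 3 was called in any comparison. Inha, the inhibin alpha subunit, was below 10 CPM and was called lower in aged NSN oocytes (-0.42) and in young SN against NSN oocytes (-0.52). Its ratio with age was 0.08 without the run 41 to 48 and -0.19 without the oocyte yGV_18. Its ratio between configurations in young oocytes was 0.07 without the run 17 to 24 and -0.28 without yGV_18. Of the enzymes that cut the precursors, Furin was at 64.9 ± 12.7 CPM (SD, n = 30) in young and 54.5 ± 15.8 CPM (SD, n = 37) in aged NSN oocytes, a log2 ratio of -0.25. Pcsk6, at 8.39 CPM in aged NSN and 13 CPM in aged SN oocytes, was called higher in SN (0.63), as was Pcsk7 (0.50, and 0.17 without the run 25 to 31). The ratio of Pcsk6 was 0.40 without the oocyte oGV_41, 0.09 among oocytes with suffix A and 0.85 among those without suffix.

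Of 12 receptors of the family 10 had a feature and 7 reached 10 CPM. Bmpr1b, a type 1 receptor for several BMPs, was at 306.3 to 325.5 CPM and was called in no comparison. Between aged and young NSN oocytes none of the SMADs or extracellular inhibitors was called, and of the receptors Acvr1, a type 1 receptor, was just past the limit, at 5.64 against 4.51 CPM, with a log2 ratio of 0.18 without the run 9 to 16. Between aged SN and NSN oocytes 3 of 9 receptors with enough counts were called higher (Bmpr1a, Tgfbr1 and Tgfbr3) and 1 lower (Acvr2a). Bmpr1a was at 0.29 without the run 25 to 31 and Acvr2a at -0.27 without the run 41 to 48, both short of the limit. Tgfbr3 was short of it as well without the oocyte oGV_46 (0.31) and among oocytes without suffix (0.15), and was at 0.65 with suffix A. Of 8 SMADs, 5 had enough counts and 2 were called lower in that comparison (Smad1 and Smad4), at -0.27 and -0.26 without the run 25 to 31, and Smad3 was the highest at 301.2 to 324.5 CPM. Twsg1, an extracellular BMP modulator, was at 8.35 ± 3.49 CPM in aged NSN (SD, n = 37) and 22.4 ± 13.2 CPM in aged SN oocytes (SD, n = 8), a log2 ratio of 1.42.

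Of 14 other FGFs, receptors and inhibitors, 11 had a feature and 7 reached 10 CPM. Spry4, an inhibitor of FGF signalling, was highest at 521.9 to 641.0 CPM. Fgf1, at 10.3 CPM in young and 8.04 CPM in aged NSN oocytes, was the only gene of this list called between ages in NSN oocytes (-0.36), and was at -0.25 without the run 41 to 48. Fgf1 and Fgfr2 were called higher in aged SN than in aged NSN oocytes, at 0.47 and 0.69. Of 11 genes of KIT ligand and KIT signalling, 10 had a feature, Kitl itself being low at 10.0 to 17.4 CPM. Kitl, Sos1 and Ptpn11 were called higher in aged SN than in aged NSN oocytes, at 0.80, 0.60 and 0.32, and without the run 9 to 16 Sos1 was at 0.17 and Ptpn11 at 0.31. Pik3cd, which encodes a catalytic subunit of phosphoinositide 3-kinase, was highest at 609.8 to 684.8 CPM.

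Among 15 other connexins, adhesion and transzonal projection genes 12 had a feature. Gja1, the connexin of granulosa cells, was called lower in aged than in young NSN oocytes, with 3.20 ± 5.92 (SD, n = 37) and 7.81 ± 10.7 CPM (SD, n = 30) and a log2 ratio of -1.29. The medians were 3.06 CPM (young NSN) and 1.56 CPM (aged NSN), single oocytes ran from 0 to 42.3 and from 0 to 29.6 CPM, and the ratio was -0.94 without the run 41 to 48. Between configurations Gja1 went opposite ways, at -0.66 in young and 0.50 in aged oocytes, and the latter turned to -0.48 without the run 41 to 48. Without the oocyte oGV_46 the aged value was 0.06. The young value was -0.21 without the run 17 to 24 and -0.41 without the oocyte yGV_18. Ctnnb1, which encodes beta-catenin, was at 241.9 to 281.4 CPM. Myo10, a filopodial myosin, was called higher in aged SN than in aged NSN oocytes (0.35), with 230.7 ± 48.6 (SD, n = 8) and 180.8 ± 44.0 CPM (SD, n = 37), as was Cdh3, at 1.19, while Gja3, a connexin, was called lower (-0.45). Myo10 was at 0.27 without the run 25 to 31 and Gja3 at -0.30 without the oocyte oGV_46, both short of the limit. Apart from Gja1, no gene of this list was called between aged and young NSN oocytes.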

How the data were processed

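The 88 libraries hold Smart-seq2 cDNA of single GV oocytes. The authors trimmed reads, aligned them to GRCm38 with HiSat2 and deposited raw counts over the features of an oocyte transcriptome, without normalisation. The counting tool and whether it used strand are not given in the sources used here. Reads carry no molecular identifiers, so intervals (95%, exact) cover the sampling of reads only. They do not cover PCR amplification or the spread between oocytes. The counting noise subtracted from CVs is likewise that of reads, so amplification noise stays in the CVs.

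Features were named from the part of the study's supplementary table in hand (1984 features), or else by the same-strand gene of GENCODE M21 whose span had the best Jaccard overlap, at least 0.3. The members and lists were chosen with earlier results of these data known. Members and, per list, up to 4 genes with at least 10 CPM are named, by highest level and by largest difference with age in NSN oocytes, and further genes are named, after their values were seen, where a count of calls is small.

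Levels are CPM pooled over the oocytes of a group. A log2 ratio of at least 0.32 in either direction was a call, among 12408 features with a mean count of at least 10. Oocytes are not replicates of an age group (the mouse of each is not named), so no test was run. CVs used median of ratios size factors. TMM factors came from edgeR 4.0.16 in R 4.3.3 and the rest from Python 3.11.15 with numpy 2.4.6 and scipy 1.17.1. Scripts were tested on simulated data. Alternatives were TMM, median of ratios, thinning to 900000 counts, mean or median over oocytes, other filters and folds, suffixes and left-out oocytes or runs. The methylation arm was not analysed here.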

Additional observations from a re-analysis of the deposited data

Results flagged for a closer look

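The aged oocyte oGV_48A, which has no predicted configuration and entered no comparison, had 9682 CPM of Gdf9, above all 87 other oocytes, whose highest value was 6411 CPM. The study's methods describe leaving out an outlier library, which they do not name. In oGV_48A Bmp15 was at 1068 CPM and its Kit at 228.5 CPM, both below all 87, whose lowest values were 2128 and 295.2 CPM. Bmp6 at 54.6, Fgf8 at 71.3 and Gja4 at 1047 CPM were inside the range of the others. Its log2 ratio of Gdf9 to Bmp15 per kilobase was 3.77, against medians of 0.82 to 0.94 in the 4 groups. Relative to the median aged oocyte, features with under 1500 bases of exon had a median log2 ratio of 0.40 in it. Those of 1500 to 2500 bases had 0.47, those of 2500 to 4000 bases 0.27 and those with 7000 bases or more -0.74. Gdf9 (2031 bases) was at 1.13, Bmp15 (3060 bases) at -1.79 and Kit (8911 bases) at -1.22. The part of exon length in the 3 values was not tested. In the 8 aged SN oocytes no member had a value far enough from the others to stand apart by Dixon's criterion.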

How the results depend on the processing

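No paired analysis was possible because the age groups share no oocyte numbers. Of 443 log2 ratios recomputed under the alternatives, 397 stayed within 0.1 or the counting interval, and none that was past the fold changed sign. All 29 changes of sign were in age ratios below the fold, 0 of them in SN over NSN ratios. TMM and median of ratios scaling moved the median of all features by less than 0.1. The cause of the shifts below was not tested.

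With suffix A alone, SN over NSN in aged oocytes was 0.26 for Gdf9, -0.11 for Bmp6, -0.42 for Gja4 and 0.60 for Kit, and without suffix 0.66, -0.48 and -0.18 for the first 3 and -0.56 for Fgf8. In young oocytes it was -0.28 for Fgf8 without suffix, with 1 member called higher. With age Fgf8 had -0.17 with suffix A and 0.40 without in all oocytes, -0.18 and 0.46 in NSN, and -0.39 and 0.18 in SN oocytes, with 1 member called higher without suffix in all and in NSN oocytes, and 1 lower in SN oocytes with suffix A. With age Bmp6 had -0.18 and 0.10 in NSN, and -0.047 with suffix A in SN oocytes, where Gja4 had -0.28 and -0.061 and Kit 0.23 with suffix A. Thinning gave -0.58 for Fgf8, SN over NSN in aged oocytes. In young oocytes that ratio was -0.25 with the mean and -0.25 with the median over oocytes, and the median gave 0.021 for Fgf8 with age in all oocytes and 1 member called lower in SN over NSN of aged oocytes. At a fold of 1.5, 0 were called higher and 0 lower there. Minimum mean counts of 1 or 100 left all 6 members in, so no count of members moved, but the shares of all features called did. With a minimum of 1 and 100 these were 19% and 1.34% between aged and young NSN oocytes in place of 5.89%, 16% and 0.988% between all aged and young oocytes in place of 4.51%, and in aged SN over NSN oocytes 26.8% and 11.6% higher in place of 20% and 19.6% and 13% lower in place of 14.7%. All 6 members have mean counts above 100.

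Leaving out runs or single oocytes, SN over NSN in aged oocytes ranged from 0.23 to 0.42 for Bmp15, -0.82 to -0.18 for Fgf8 and 0.29 to 0.53 for Kit, with 1 to 3 members called higher and 1 to 3 lower. In young oocytes it ranged from 0.16 to 0.42 for Gdf9, with 0 to 1 called higher. With age in all oocytes Bmp6 ranged from -0.12 to 0.098, Fgf8 from 0.015 to 0.20 and Gdf9 from -0.24 to -0.0070. In NSN oocytes Bmp6 ranged from -0.12 to 0.090, Fgf8 from 0.0054 to 0.25 and Gdf9 from -0.22 to 0.010. In SN oocytes Bmp6 ranged from -0.26 to -0.053, Fgf8 from -0.43 to 0.054, Gdf9 from -0.061 to 0.21 and Kit from -0.087 to 0.17, with 0 to 1 called lower. The log2 ratio of squared CV ranged from 1.29 to 2.51 for Gdf9 (2.53 in NSN oocytes alone), 0.59 to 1.62 for Bmp15, 0.77 to 1.88 for Fgf8, 0.25 to 1.44 for Kit and -0.32 to 1.30 for Bmp6, the lowest value of each without the run 25 to 31. The correlation of Gdf9 and Fgf8 was -0.42 over 87 oocytes, -0.15 in young NSN oocytes and 0.42 in SN oocytes of both ages. Runs for the spread and single oocytes were left out as choices made after the data were seen.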

Other observations

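Of the oocyte markers, Zp2, which encodes a zona pellucida glycoprotein, was at 3090 ± 672 CPM in young NSN (SD, n = 30) and 2624 ± 910 CPM in aged NSN oocytes (SD, n = 37), a log2 ratio of -0.24, and at 3949 ± 695 (SD, n = 12) and 4419 ± 492 CPM (SD, n = 8) in SN oocytes. Its log2 ratios of SN over NSN, 0.35 in young and 0.75 in aged oocytes, had the sign of those of Gdf9, Bmp15 and Kit. Dazl, an RNA-binding protein of germ cells, was at 962.7 ± 119 CPM in young and 1161 ± 205 CPM in aged NSN oocytes, a log2 ratio of 0.27, and had 0.33 in SN oocytes. H1foo, the oocyte linker histone, had log2 ratios of SN over NSN of -0.12 in young and -0.39 in aged oocytes. Between aged SN and NSN oocytes 6 of the 12 oocyte markers with a feature were called higher (Zp1, Zp2, Zp3, Ddx4, Nobox and Nlrp5) and 2 lower (H1foo and Oosp1), where 20% of all features were higher and 14.7% lower. Between aged and young NSN oocytes none of the 12 was called. Of 8 theca, stroma, blood and endothelial markers with a feature, Col1a1, Hbb-bs and Hba-a1 were at 0 counts and Pecam1 reached 62.6 to 68.7 CPM.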
